A study of Homo sapiens with 10 samples.

Results

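The enzymes of branched-chain amino acid transamination and oxidation, with those that make and use glutamate and glutamine, were followed in HuCCT1, an established human cholangiocarcinoma (bile duct cancer) cell line. The arrays compared 5 samples of HuCCT1 cells carrying a YAP1 construct labelled YAPS94A with 5 samples carrying an empty vector. Cells of both groups were grown in the same medium, which was supplemented with serum, L-glutamine, pyruvate and non-essential amino acids. YAP1 is the transcriptional co-activator of the Hippo pathway. S94A, the substitution in the labels, is known for weakened TEAD binding. The series' design text gives S127A instead, which takes away a site of inhibitory phosphorylation, so the construct is called here by its label. Every sample is of this 1 cell line. Separate cultures are not mentioned for the 5 arrays per vector, so the p-values below measure only the spread between arrays, which may be technical.

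The members were 9 genes, BCAT1, BCAT2, BCKDHA, BCKDHB, DBT, GLUL, GLUD1, GOT1 and GPT2, read by every probe set that the platform annotation gives exactly 1 of these symbols. This took 22 of 54675 probe sets and covered 8 of the 9 genes. GPT2 had no such probe set and was not analysed here. The set was selected on this same contrast, because BCAT1 and GLUL were strongly lower with the construct. On their brightest probe sets they ranked 3 and 5 among 19775 genes ordered from the largest fall. The differences between the vectors in all members are therefore given as descriptions with no p-value. Where members are counted against the threshold used for all probe sets, that count is a description too and supports nothing.

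Transamination is the first step of branched-chain amino acid breakdown. BCAT1 in the cytosol and BCAT2 in mitochondria move the amino group of leucine, isoleucine or valine to 2-oxoglutarate, which yields glutamate and a branched-chain keto acid. The keto acids are then oxidised by the mitochondrial branched-chain keto acid dehydrogenase complex, whose decarboxylase is formed by the products of BCKDHA and BCKDHB and whose transacylase core is the product of DBT. GLUL encodes glutamine synthetase, which joins ammonia to glutamate, while GLUD1 (glutamate dehydrogenase), GOT1 (cytosolic aspartate aminotransferase) and GPT2 (mitochondrial alanine aminotransferase) interconvert glutamate and 2-oxoglutarate. In normal liver, glutamine synthetase is confined to the hepatocytes around the central vein.

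The sequences just upstream of BCAT1 and GLUL are shown because these were the members that differed most between the vectors. They come from RefSeq promoter windows on GRCh38.p14, which were given for 7 of the members (12 windows in all), and each whole window here covers the 250 bases before an annotated start. Capitals mark matches to 4 short motifs that were searched on both strands: GGAATG (TEAD factors), CACGTG (the MYC E-box), TGATGNAAN (the ATF4 amino acid response element) and CTTTGAT (TCF/LEF factors).
BCAT1 chr12:24949341-24949590, minus strand: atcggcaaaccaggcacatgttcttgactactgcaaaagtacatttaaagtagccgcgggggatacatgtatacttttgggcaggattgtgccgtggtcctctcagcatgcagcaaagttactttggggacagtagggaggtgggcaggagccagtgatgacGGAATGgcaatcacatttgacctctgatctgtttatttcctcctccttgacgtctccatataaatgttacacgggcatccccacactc
GLUL chr1:182391791-182392040, minus strand: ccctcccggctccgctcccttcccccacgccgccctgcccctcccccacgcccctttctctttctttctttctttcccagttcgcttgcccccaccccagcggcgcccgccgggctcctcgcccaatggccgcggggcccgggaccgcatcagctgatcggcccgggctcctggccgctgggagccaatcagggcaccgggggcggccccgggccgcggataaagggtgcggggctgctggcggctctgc
BCAT1, before another start, chr12:24949130-24949159, minus strand: gtcttcctgcTGATGCAATccgctaggtcg
GOT1 chr10:99430804-99430833, minus strand: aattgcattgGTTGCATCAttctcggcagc
The whole windows shown are the most upstream ones of BCAT1 and GLUL. That of BCAT1 held a TEAD motif, 88 bases before the start, and the other 4 BCAT1 windows had none. In another of the 5 BCAT1 windows an ATF4 motif lay 48 bases before the start. The GOT1 window held an ATF4 motif, in reverse complement, 199 bases before the start. Neither of the 2 GLUL windows held any of the 4 motifs, nor did those of BCKDHA, BCKDHB, DBT and GLUD1. Of all 35116 windows of this length, 11.9% held the TEAD motif, 3.13% the ATF4 motif, 6.34% the MYC motif and 2.26% the TCF/LEF motif. These shares are per window, while BCAT1 had 5 windows, some of which overlap. A match is a run of letters and was not tested as a binding site.

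Signals are the deposited log2 values, so a difference of 1 is a doubling of the signal, and over all probe sets the lower quartile was 4.73 and the median 6.27. The array medians lay between 6.25 and 6.28. The YAP1 transcript read 12.87, 12.53, 12.90, 12.92 and 13.01 on the YAPS94A arrays and 12.12, 12.05, 12.47, 12.48 and 12.49 on the empty vector arrays, so the groups did not overlap (difference 0.52 ± 0.11, SE, limma adjusted p = 0.00277). Its dimmer probe sets differed by 0.56 ± 0.10 and 0.60 ± 0.065. Relative to its neighbouring genes the call of the brightest probe set was lost (adjusted p = 0.0821). Of 8 measured biliary epithelial markers, 7 averaged above the median of all signals in both groups (KRT7, KRT19, KRT8, KRT18, EPCAM, SOX9 and CDH1), while SPP1 averaged 4.16 with the construct and 4.95 with empty vector. In the test over genes 5 of the 8 were higher and 1 was lower, and their summed linear signal was 87810 to 90427 in YAPS94A cells and 78360 to 80729 in empty vector cells. Of 8 measured leukocyte markers, means lay between 4.36 and 6.33 in YAPS94A cells and between 4.25 and 6.35 in empty vector cells, and their summed linear signal was 286 to 315 and 291 to 318. Of 10 fibroblast markers the summed signal was 2557 to 2941 in YAPS94A cells and 1053 to 1244 in empty vector cells, with 2 higher (LUM, 10.70 and 8.04, and ACTA2, 8.11 and 5.89) and 1 lower (PDGFRA, 5.56 and 5.99). COL1A1 was at 8.71 and 8.83, COL1A2 at 5.23 in both and COL3A1 at 4.60 in both. Of 9 hepatocyte markers the sum was 7487 to 7889 and 7683 to 8434, with ALB at 4.72 and 4.74. Of 8 endothelial markers it was 633 to 751 and 522 to 620, led by ESAM (8.81 and 8.38). The part of these differences in the members' values was not tested. In a bulk sample, fewer cells with a transcript and less of it per cell cannot be told apart.

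BCAT1, the cytosolic branched-chain aminotransferase, was dim with the construct and bright with empty vector on each of its 4 probe sets. Its brightest probe set, 226517_at, read 5.57, 5.54, 5.63, 5.83 and 5.58 on the YAPS94A arrays and 10.95, 11.60, 11.01, 11.46 and 11.37 on the empty vector arrays. Every array with the construct lay far below every array with empty vector. The mean was 5.63 ± 0.12 with the construct and 11.28 ± 0.29 with empty vector (SD, n = 5 each), a difference of -5.65 ± 0.12 (SE) or 50.2-fold. The second probe set, 225285_at, read 5.87, 5.89, 5.53, 5.81 and 5.88 with the construct and 11.11, 11.20, 11.00, 11.10 and 11.15 with empty vector. This is the tightest of the BCAT1 probe sets among empty vector arrays (SD 0.074), and its difference was -5.32 ± 0.070. The third, 214452_at, differed by -5.13 ± 0.11, between means of 4.79 with the construct and 9.92 with empty vector.

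The fourth BCAT1 probe set, 214390_s_at, showed a smaller difference. It read 5.05, 5.36, 5.97, 5.55 and 5.67 on the YAPS94A arrays and 8.65, 8.44, 8.46, 8.19 and 8.44 on the empty vector arrays, a difference of -2.91 ± 0.15. Its suffix marks a probe set that can read more than 1 transcript. With the construct, all 4 means lay below the median of all signals and none lay below the lower quartile. No detection calls were used here, so how much of the remaining signal is background is unknown and the folds are uncertain. Genes around BCAT1 on chromosome 12 were also somewhat lower, with a median of -0.34 (taken over the 30 closest genes in chromosome order whose level exceeded the overall median). Relative to them BCAT1 was at -5.30.

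GLUL, glutamine synthetase, was lower with the construct on 3 of its 4 probe sets. The brightest, 215001_s_at, read 5.65, 5.80, 5.72, 5.67 and 5.48 on the YAPS94A arrays and 10.89, 10.72, 10.75, 10.64 and 10.76 on the empty vector arrays. The groups lay far apart and each was tight, with means of 5.66 ± 0.12 and 10.75 ± 0.092 (SD, n = 5 each). The difference was -5.09 ± 0.065 (SE), or 33.9-fold. A smaller difference was seen on the next pair of probe sets. Probe set 200648_s_at read 4.34, 4.32, 4.21, 4.40 and 4.31 with the construct and 6.54, 6.62, 6.69, 6.303 and 6.51 with empty vector, a difference of -2.21 ± 0.068. Probe set 217202_s_at averaged 4.64 ± 0.20 with the construct and 6.02 ± 0.24 with empty vector, a difference of -1.38 ± 0.12. Every YAPS94A array lay below every empty vector array on both, and both construct means were under the lower quartile of signals.

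The only GLUL probe set with no _s_at suffix, 242281_at, was dim in both groups, at 3.41 ± 0.052 with the construct and 3.43 ± 0.028 with empty vector. Only 1.75% of probe sets were dimmer with the construct and 2.00% with empty vector, and its difference was -0.021 ± 0.037. Leaving out probe sets whose names end in _x_at or _s_at therefore leaves GLUL with no readable signal (-0.021), and averaging its 4 probe sets gives -2.17. The neighbours of GLUL on chromosome 1 had a median of -0.095, so that relative to them it was at -4.99.

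**Figure D1:**
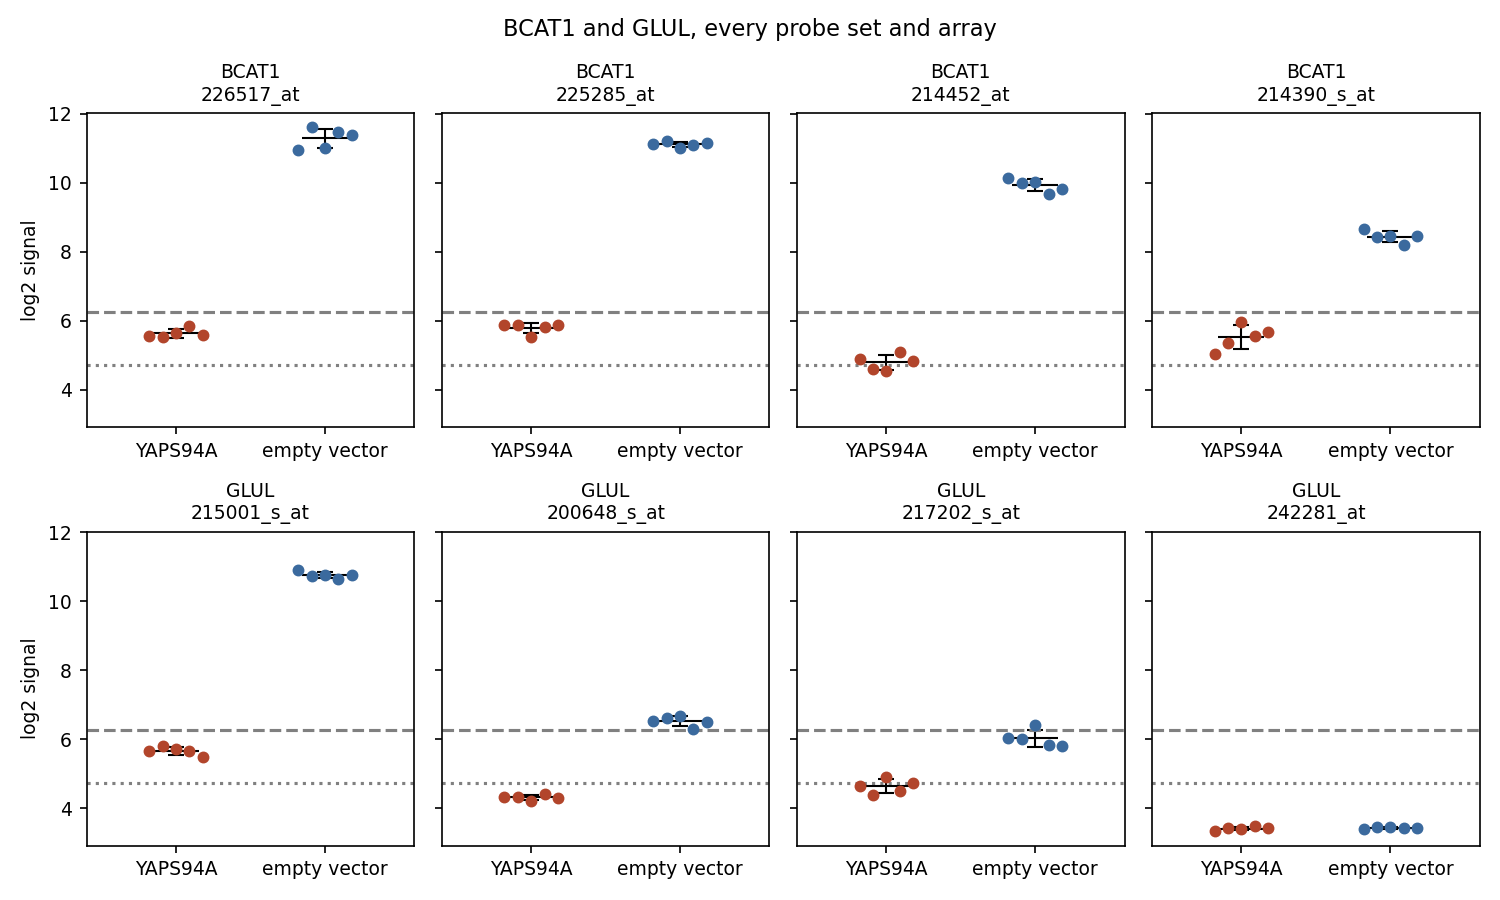
Log2 signal on each array (points) for the 4 BCAT1 and 4 GLUL probe sets, YAPS94A left and empty vector right, with mean and SD in black. Dotted and dashed lines mark the lower quartile (4.73) and the median (6.27) of all signals. On 7 of the 8 probe sets the YAPS94A arrays lie below all empty vector arrays, and GLUL 242281_at is dim in both groups.

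The genes whose profiles over the 10 arrays were closest to BCAT1 and GLUL, after each was centred on its own mean, were others with falls of nearly the same size. For BCAT1 the nearest was SDC2, the proteoglycan syndecan-2, at a root mean square distance of 0.24 log2 units. It was followed by ZNF662 (0.33), BCL2A1 (0.36), CLDN11 (0.37) and GLUL (0.38). For GLUL the nearest were POSTN (0.18), SRGN (0.19), AUTS2 (0.19), CLDN11 (0.20) and TRPC4 (0.20), and BCAT1 stood at rank 9. With 2 groups so far apart, this distance mainly reflects the size of the difference between the vectors.

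BCAT2, the mitochondrial counterpart of BCAT1, showed no such shift. Its brighter probe set, 203576_at, read 10.42, 10.34, 10.36, 10.34 and 10.24 on the YAPS94A arrays and 10.60, 10.41, 10.51, 10.43 and 10.48 on the empty vector arrays. The ranges touched, with 1 YAPS94A array above the lowest empty vector array, and the difference was -0.15 ± 0.047. Between arrays of the same number it was lower with the construct in 5 of 5 cases, by 0.071 to 0.24 in size. The labels number the arrays but state no pairing, so same-number comparisons here and below are descriptions only. The dimmer BCAT2 probe set, 215654_at, was at 7.06 ± 0.14 with the construct and 7.05 ± 0.10 with empty vector. It differed by 0.014 ± 0.073, so that the mean over both probe sets was -0.067.

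The subunits of the keto acid dehydrogenase complex differed in small and mixed ways. BCKDHA, the alpha subunit of the decarboxylase, read 8.11, 8.31, 7.95, 8.08 and 7.77 on the YAPS94A arrays and 7.95, 7.76, 7.64, 7.51 and 7.49 on the empty vector arrays. It was higher with the construct by 0.37 ± 0.11 (1.29-fold), and the ranges overlapped. The YAPS94A value was higher in all 5 same-numbered comparisons (0.16 to 0.58). BCKDHB, the beta subunit, gave opposite signs on its 2 probe sets. Probe set 213321_at read 7.81, 7.37, 8.22, 8.11 and 8.29 with the construct and 7.21, 6.93, 7.76, 7.72 and 7.85 with empty vector, a difference of 0.47 ± 0.21. Probe set 210653_s_at read 8.41, 7.87, 8.35, 8.41 and 8.58 with the construct and 8.30, 8.08, 8.61, 8.74 and 8.70 with empty vector, a difference of -0.16 ± 0.15. Ranges overlapped on both, and the mean of the 2 probe sets gave 0.15 ± 0.18. Where on the transcript each of them reads was not analysed here.

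With the array number as a block, the SE of BCKDHB 213321_at was 0.044 around the same difference. Between arrays of the same number the YAPS94A array was higher in 5 of 5 cases, by 0.39 to 0.60. For 210653_s_at the blocked difference was -0.16 ± 0.065, with the YAPS94A array lower in 4 of 5. Without the arrays numbered 1 and 2, the differences were 0.43 ± 0.063 for 213321_at and -0.24 ± 0.071 for 210653_s_at. The block cannot alter a difference here, because each array number occurs in both vectors, so it says nothing on the signs. Without the arrays numbered 1 and 2, a subset of the same arrays, the signs stayed opposite.

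DBT, the transacylase core, was read by 6 probe sets, none of which differed by more than 0.16. The brightest, 205370_x_at, averaged 9.97 ± 0.050 with the construct and 9.97 ± 0.069 with empty vector, a difference of 0.002 ± 0.044. The next, 231919_at, read 8.98, 8.995, 8.88, 8.77 and 8.68 on the YAPS94A arrays and 9.02, 9.06, 8.998, 9.01 and 9.01 on the empty vector arrays. These groups only just separated (-0.16 ± 0.060), and the YAPS94A arrays spread far more (SD 0.13) than the empty vector arrays (SD 0.024). Between arrays of the same number it was lower with the construct in 5 of 5 cases, by 0.042 to 0.32 in size, and the SE with the array number as a block was 0.052. Probe set 244687_at was lower on the YAPS94A array of each number, by 0.076 to 0.19 in size (-0.14 ± 0.076). The remaining 3 lay between -0.050 and 0.019, and 211196_at was dim in both groups (3.83 and 3.81).

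Among the glutamate enzymes, GLUD1 was bright, and its groups overlapped. Its probe set 200947_s_at read 12.14, 11.96, 12.29, 12.21 and 12.31 on the YAPS94A arrays and 11.95, 11.94, 12.23, 12.21 and 12.20 on the empty vector arrays. The difference was 0.074 ± 0.082, and 200946_x_at differed by 0.077 ± 0.088. Both suffixes mark probe sets that may read other transcripts too, so the signal may not be of GLUD1 alone. GOT1, the cytosolic aspartate aminotransferase, read 12.16, 12.25, 12.22, 12.31 and 12.24 with the construct and 12.05, 12.04, 11.98, 12.03 and 12.03 with empty vector. Every YAPS94A array was above every empty vector array, yet the difference was small (0.21 ± 0.038, 1.16-fold). The neighbours of GOT1 had a median of -0.089, and relative to them it was at 0.30.

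**Figure D2:**
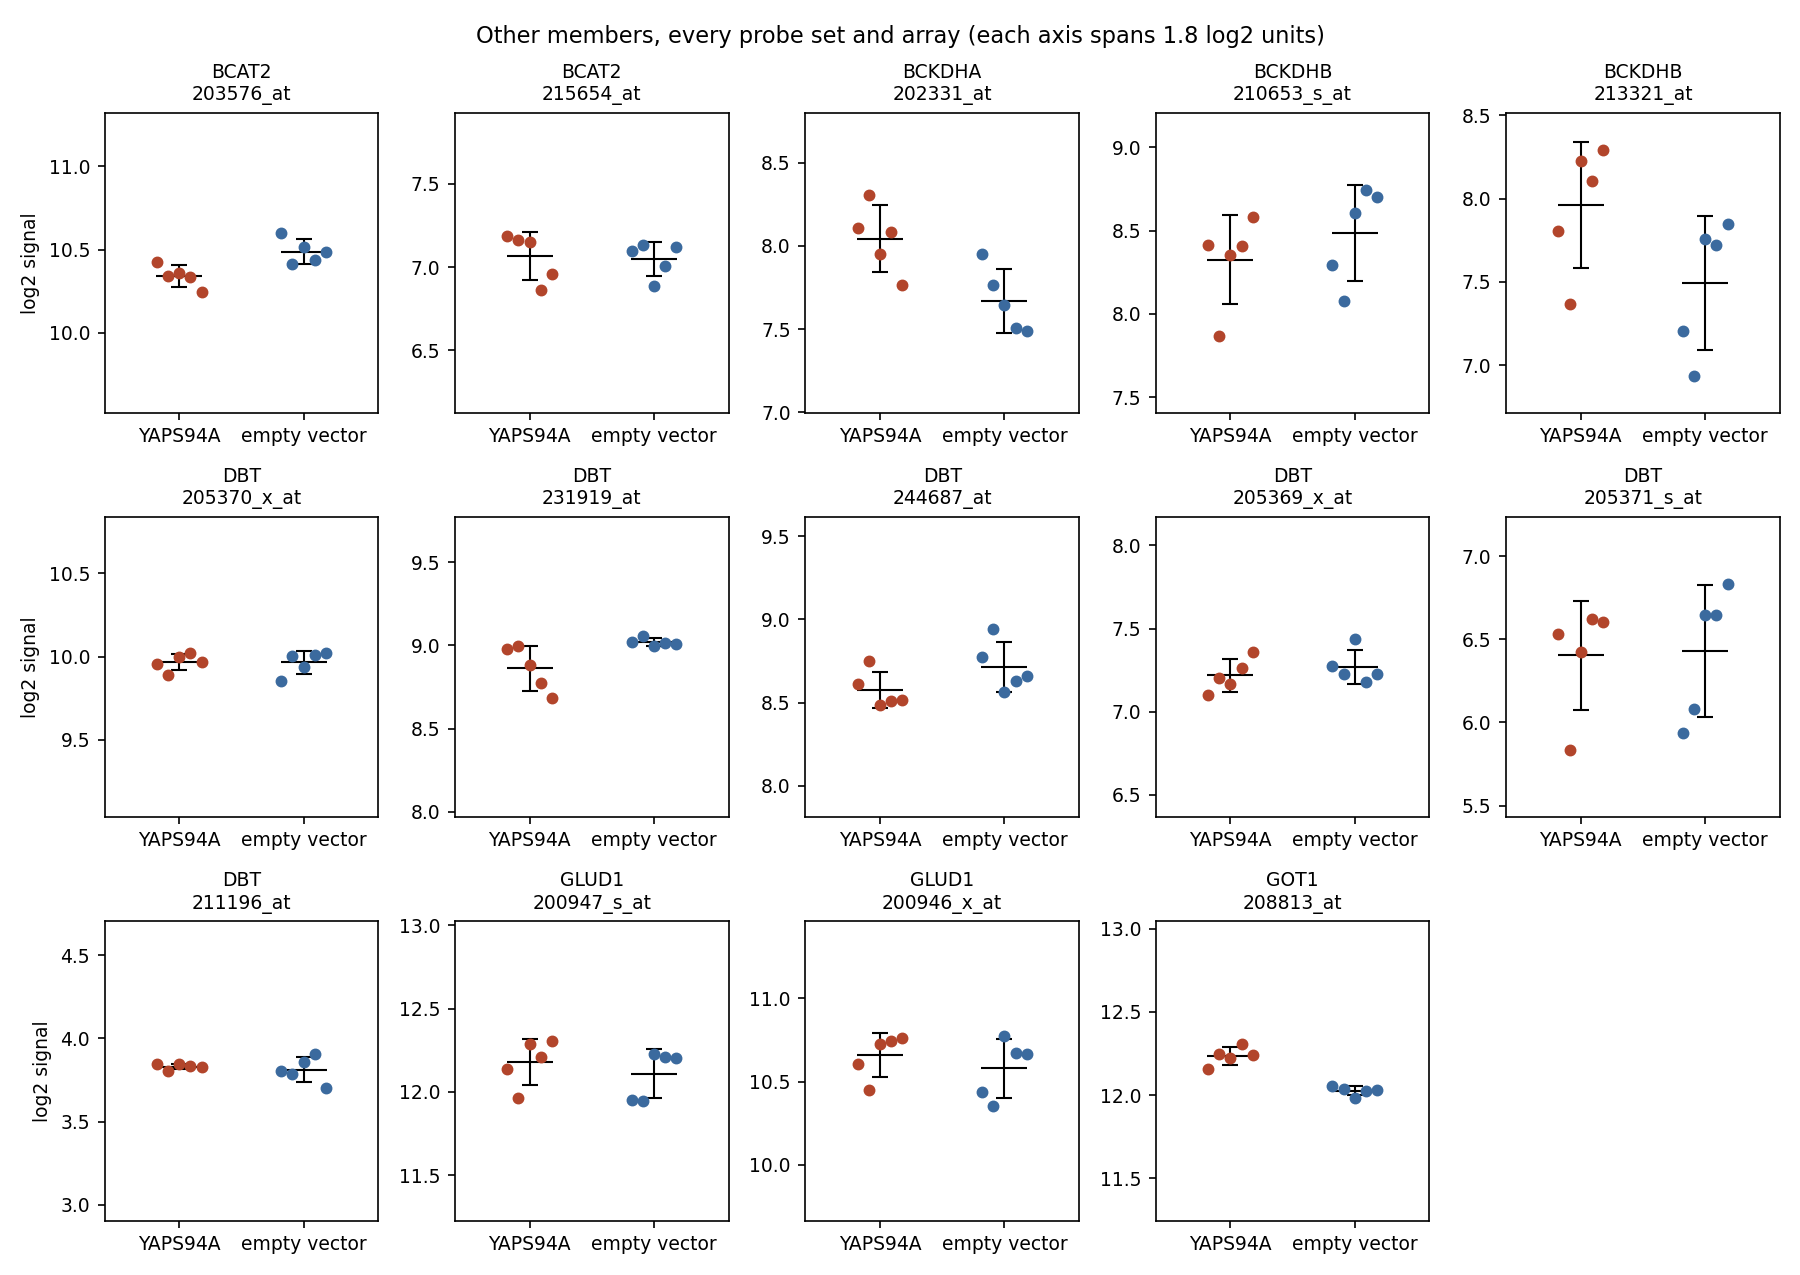
Log2 signal on each array (points, ordered by array number within a vector) for the 14 probe sets of BCAT2, BCKDHA, BCKDHB, DBT, GLUD1 and GOT1, YAPS94A left and empty vector right, with mean and SD in black. The groups overlap on most of them, GOT1 separates by 0.21, and the 2 BCKDHB probe sets differ in opposite directions.

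Over all members, 10 of the 22 probe sets were past the threshold of 0.05 on the adjusted p in limma, against 28.6% of all 54613 probe sets tested, and 9 of the 22 had groups without overlap, against 23.0%. Because the set was assembled on this contrast, nothing is read from these counts. The 10 were all 4 BCAT1 probe sets, 3 of GLUL, and 1 each of BCAT2 (lower), BCKDHA (higher) and GOT1 (higher). The median difference was -0.094 over the 22 probe sets and -0.0084 over all probe sets. BCAT1 and GLUL, for which the set was chosen, differed by 1.38 to 5.65 in size on the 7 probe sets above. GLUL 242281_at was at -0.021. The 14 probe sets of the other 6 genes lay between -0.16 and 0.47. That BCAT1 and GLUL stand apart follows from the choice and is not a result.

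**Figure D3:**
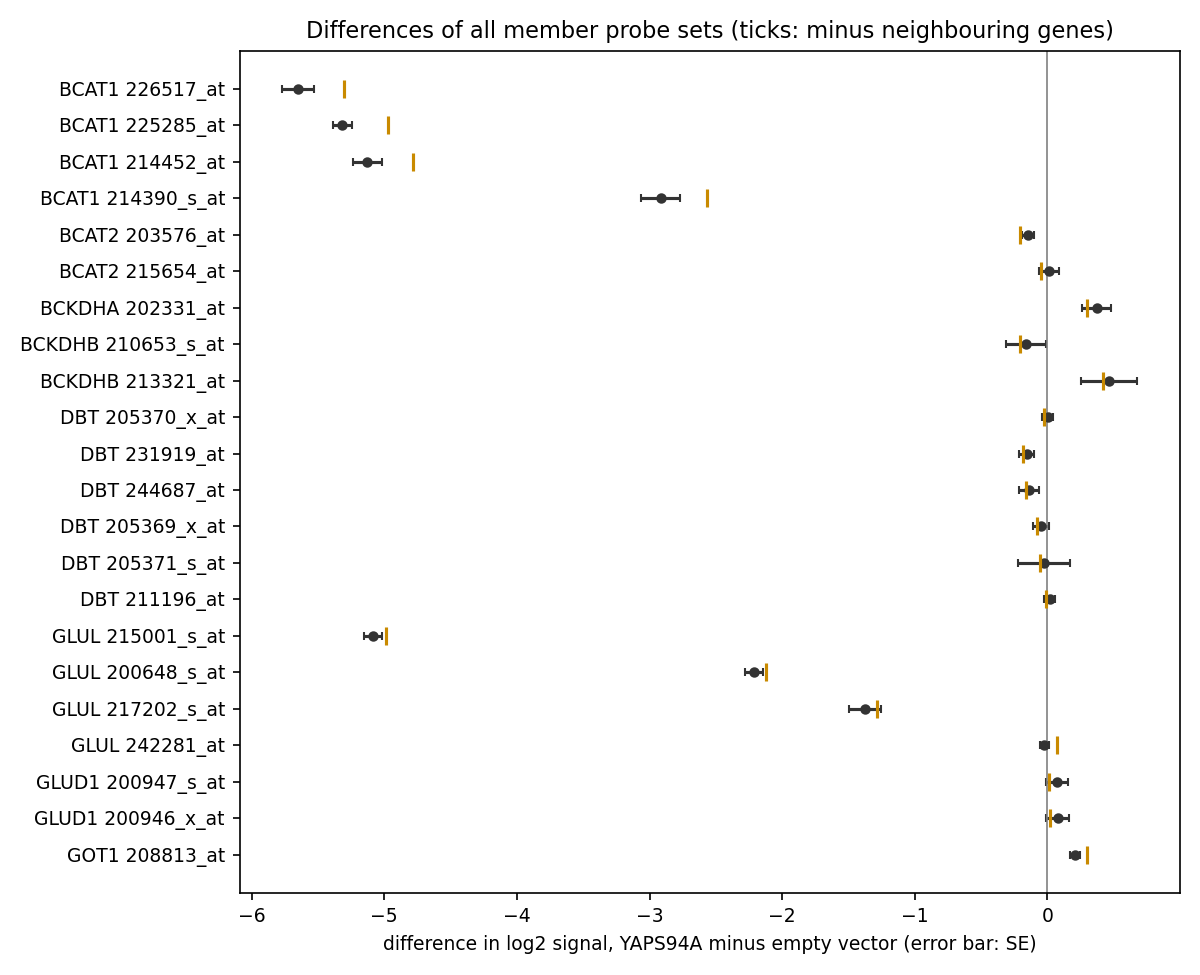
Difference in log2 signal, YAPS94A minus empty vector, for the 22 member probe sets (points with SE), with the value relative to the 30 neighbouring genes as a vertical tick. BCAT1 lies between -5.65 and -2.91, the 3 brighter GLUL probe sets between -5.09 and -1.38, and all other probe sets between -0.16 and 0.47.

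Within each vector, some members varied with the array number. On both BCKDHB probe sets and both GLUD1 probe sets the lowest array was number 2 in both groups. For BCKDHB 213321_at, arrays 1 and 2 averaged below arrays 3 to 5 by -0.62 among YAPS94A arrays and by -0.70 among empty vector arrays, which is more than the difference between the vectors. For DBT 205371_s_at the same quantity was -0.37 and -0.70, and for GLUD1 200947_s_at it was -0.22 and -0.27. BCKDHA went the other way, with arrays 1 and 2 higher by 0.27 and 0.31. A measure of RNA integrity moved with the number too. The control probe sets at the 3′ end of GAPDH and ACTB exceeded those at the 5′ end by 0.68, 0.82, 0.54, 0.46 and 0.44 on YAPS94A arrays 1 to 5 and by 0.85, 0.68, 0.68, 0.52 and 0.48 on empty vector arrays 1 to 5. Its part in the members' values was not tested beyond a fit with it as a covariate, in which BCKDHB 213321_at was at 0.36 ± 0.13 and BCKDHA at 0.43 ± 0.057. BCAT1 226517_at and GLUL 215001_s_at kept nearly the same differences in that fit, at -5.69 ± 0.10 and -5.06 ± 0.051.

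**Figure D4:**
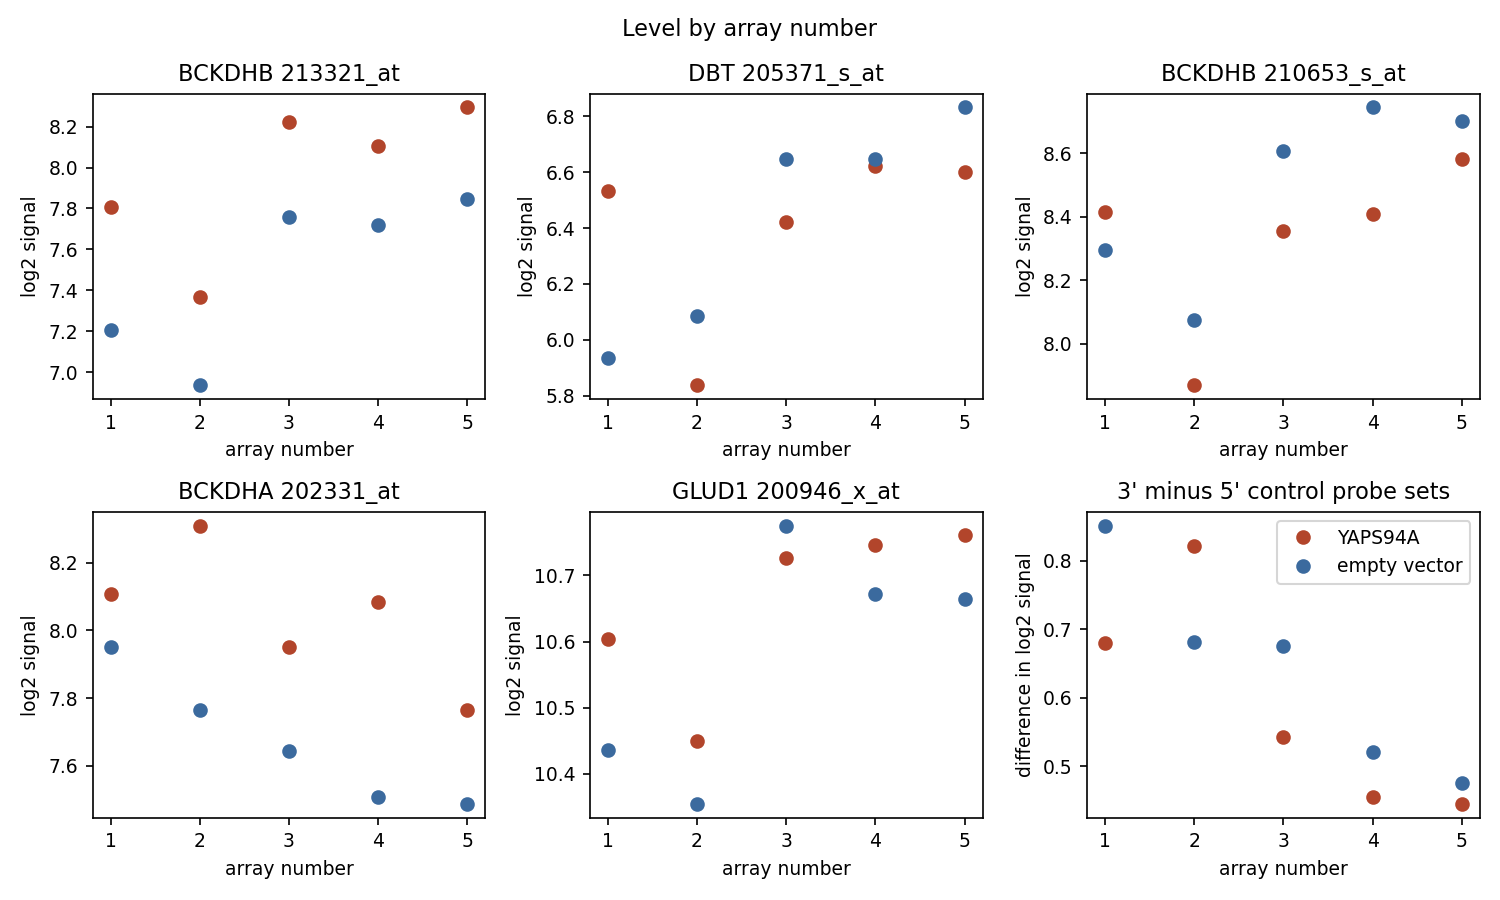
Log2 signal against the array number for 5 member probe sets, and the 3′ minus 5′ difference of the GAPDH and ACTB control probe sets, for YAPS94A (red) and empty vector (blue). On array 2 both BCKDHB probe sets and GLUD1 200946_x_at are at their lowest in both vectors, and the control difference is largest on arrays numbered 1 and 2.

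Related genes that are not members were read by their brightest probe set and tested with limma over 19775 genes, of which 36.3% were past the threshold, 18.6% higher and 17.6% lower, and 29.1% had groups without overlap. Of 19 measured genes that act on branched-chain keto acids or regulate the dehydrogenase, 7 were higher and 5 lower, while 7 missed the threshold. Their median was 0.076 (-0.0038 over all genes). The 4 with the largest changes were as follows. MCEE, methylmalonyl-CoA epimerase, averaged 9.79 ± 0.076 with the construct and 9.36 ± 0.030 with empty vector and rose by 0.43 ± 0.042 (adjusted p = 6.13e-06). MMUT, the mutase that follows it, rose by 0.32 ± 0.049 (adjusted p = 0.000271), and ALDH6A1, which acts in valine breakdown, by 0.29 ± 0.044 (adjusted p = 0.000216). ACADSB, the short/branched-chain acyl-CoA dehydrogenase of isoleucine breakdown, averaged 7.01 ± 0.096 and 7.46 ± 0.096 and fell by 0.45 ± 0.058 (adjusted p = 6.96e-05).

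The regulators of the dehydrogenase did not pass. BCKDK, the kinase that inhibits the complex, differed by 0.11 ± 0.071 (adjusted p = 0.255) and PPM1K, the phosphatase that restores it, by 0.076 ± 0.039 (adjusted p = 0.169). With the RNA integrity covariate BCKDK passed (adjusted p = 0.0130), and PPM1K did so relative to its neighbours (adjusted p = 0.0031). DLD, the subunit shared by all keto acid dehydrogenases, differed by 0.027 ± 0.037 (adjusted p = 0.649), but its dimmer probe set was at -0.28 ± 0.050, and in the mean of its probe sets it passed as lower (-0.13). Of 14 genes of the other keto acid dehydrogenase complexes, DLD again included, 5 were higher, 1 lower and 8 not past, with a median of 0.094. PDK4, a kinase that inhibits pyruvate dehydrogenase, read 7.61, 7.45, 7.69, 7.71 and 7.84 on the YAPS94A arrays and 5.70, 4.89, 5.30, 5.28 and 5.29 on the empty vector arrays, a rise of 2.37 ± 0.12 (adjusted p = 3e-08). Its dimmer probe sets differed by -0.063 and 0.020, so the rise rests on 1 probe set. DHTKD1, the decarboxylase of the 2-oxoadipate complex, rose by 1.02 ± 0.036 (adjusted p = 1.13e-09) among neighbours that were higher too (median 0.59). PDP1, the pyruvate dehydrogenase phosphatase, rose by 0.35 ± 0.046 (adjusted p = 6.94e-05), and by 0.90 on its dimmer probe set (0.62 in the mean of both). PDK2 rose by 0.28 ± 0.093 (adjusted p = 0.0368), a call lost without YAPS94A array 1, 2 or 5 or empty vector array 3, 4 or 5 and after quantile normalization. Its dimmer probe set rose by a like amount with less spread (0.29 ± 0.041).

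Of 23 measured genes of glutamine and glutamate metabolism, 4 were higher, 7 lower and 12 not past, with a median of -0.040. PFAS, of purine synthesis, averaged 11.27 ± 0.078 with the construct and 11.80 ± 0.058 with empty vector and fell by 0.53 ± 0.046 (adjusted p = 2.4e-06). CTPS1, which aminates UTP to CTP, fell by 0.45 ± 0.084 (adjusted p = 0.00104). PPAT, the first enzyme of purine synthesis, was picked after its values were seen and fell by 0.35 ± 0.059 (adjusted p = 0.000475). ASNS, asparagine synthetase, also uses glutamine and moved the other way, with 11.41, 11.64, 11.27, 11.38 and 11.40 on the YAPS94A arrays and 11.04, 11.09, 10.96, 10.85 and 10.90 on the empty vector arrays (0.46 ± 0.068, adjusted p = 0.000215). ALDH5A1, which oxidises succinic semialdehyde derived from glutamate, rose by 0.55 ± 0.091 (adjusted p = 0.000492).

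The mitochondrial partner of GOT1 moved opposite to it. GOT2 read 12.53, 12.59, 12.38, 12.36 and 12.34 on the YAPS94A arrays and 12.89, 12.91, 12.82, 12.73 and 12.78 on the empty vector arrays, and fell by 0.38 ± 0.058 (adjusted p = 0.000243). Its neighbours had a median of -0.39, and relative to them GOT2 was at 0.002, with no call. GPT, the cytosolic alanine aminotransferase, differed by -0.072 ± 0.066 (adjusted p = 0.462) on an _x_at probe set, which may cross-hybridise. It passed as lower relative to its neighbours (adjusted p = 0.00993). PYCR1, of proline synthesis, differed by 0.052 ± 0.11 (adjusted p = 0.769) and passed as higher with the RNA integrity covariate (adjusted p = 0.0285). PSAT1, the serine pathway transaminase, was dim in both groups (4.57 and 4.61) and differed by -0.040 ± 0.047 (adjusted p = 0.569).

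Carriers that bring branched-chain amino acids and glutamine across membranes held the strongest rises of these lists. Of 27 measured, 4 were higher, 8 lower and 15 not past, with a median of -0.053. SLC6A14, a carrier of neutral and cationic amino acids, read 9.61, 8.88, 9.28, 9.04 and 9.09 on the YAPS94A arrays and 3.61, 3.83, 3.29, 3.56 and 3.75 on the empty vector arrays. It rose by 5.57 ± 0.13 (adjusted p = 3.31e-11), out of a signal under the lower quartile. SLC38A4, of the SNAT family, averaged 8.81 ± 0.21 and 5.22 ± 0.36 and rose by 3.59 ± 0.16 (adjusted p = 7.28e-09), though by 0.70 on its dim second probe set. SLC1A1, a glutamate carrier, rose by 1.10 ± 0.069 (adjusted p = 1.34e-07), while SLC38A7, a lysosomal glutamine exporter, fell by 0.75 ± 0.11 (adjusted p = 0.000147) among neighbours with a median of -0.38.

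The carriers best known for leucine and glutamine uptake showed smaller differences. SLC25A44, the mitochondrial importer of branched-chain amino acids, fell by 0.21 ± 0.049 (adjusted p = 0.00569). SLC7A5, the leucine carrier LAT1, fell by 0.20 ± 0.071 (adjusted p = 0.0474), but the call was lost in 11 of 20 alternatives, among them leaving out YAPS94A array 2, 3, 4 or 5 or empty vector array 1, 3, 4 or 5. Its partner SLC3A2 differed by -0.22 ± 0.11 (adjusted p = 0.161) and passed once the array number was a block (adjusted p = 0.0377) and with the RNA integrity covariate (adjusted p = 0.0153). Relative to its neighbours SLC3A2 was at -0.47 and also passed (adjusted p = 0.0056). SLC1A5, the glutamine carrier ASCT2, differed by -0.011 ± 0.096 (adjusted p = 0.951).

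Genes of the amino acid response driven by ATF4 were mixed: of 24, 6 were higher and 5 lower, 13 missed the threshold, and the median was 0.0015. ATF3, a stress-induced transcription factor, rose by 1.07 ± 0.040 (adjusted p = 1.73e-09), and VLDLR, a lipoprotein receptor, fell by 1.17 ± 0.083 (adjusted p = 4.19e-07) among neighbours with a median of -0.31. ATF5, another stress factor, fell by 0.39 ± 0.067 (adjusted p = 0.000586). ATF4 itself fell by 0.096 ± 0.034 (adjusted p = 0.0456), and 13 of 21 alternatives lost that call, with all 5 YAPS94A arrays and empty vector arrays 1, 2, 4 and 5 able to end it by their omission. Of 24 genes of leucine and amino acid sensing, 4 were higher, 6 lower and 14 not past, with a median of -0.084. RRAGD, a Rag GTPase, rose by 0.82 ± 0.072 (adjusted p = 2.4e-06). Its means, 6.19 with the construct and 5.37 with empty vector, both lay under the median of all signals. SESN1, a sestrin, fell by 0.38 ± 0.056 (adjusted p = 0.000191), but was at -0.069 relative to its neighbours with no call. RPTOR and MTOR, parts of mTORC1, fell by 0.38 ± 0.12 and 0.27 ± 0.084 (adjusted p = 0.0223 and 0.0231). Both calls were lost without YAPS94A array 3, 4 or 5, that of RPTOR also without empty vector array 2 and that of MTOR also without empty vector array 1.

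GLUL is a classical target of beta-catenin in hepatocytes, and 14 genes known to respond with it there were measured. Of these 1 was higher, 3 lower and 10 not past, with a median of -0.039. TBX3, a transcription factor, read 10.22, 10.08, 10.20, 10.07 and 10.15 on the YAPS94A arrays and 11.31, 11.17, 11.28, 11.25 and 11.19 on the empty vector arrays and fell by 1.10 ± 0.044 (adjusted p = 2.86e-09). Its other 6 probe sets lay between -1.61 and 0.042, and the mean of all was -0.62. ZNRF3, a feedback inhibitor of Wnt receptors, fell by 0.73 ± 0.057 (adjusted p = 1.01e-06) among neighbours with a median of -0.30. SP5 fell by 0.20 ± 0.055 (adjusted p = 0.0133) at a dim level (5.31 and 5.51), and CYP2E1 rose by 0.39 ± 0.097 (adjusted p = 0.00706). The groups overlapped for both genes. CYP2E1 averaged 6.41 with the construct and 6.02 with empty vector, and its dimmer probe sets differed by -0.0096, 0.21 and 0.11. MYC, a known activator of BCAT1 in other settings, read 10.84 ± 0.42 with the construct and 10.89 ± 0.50 with empty vector (SD, n = 5 each) and differed by -0.046 ± 0.25 (adjusted p = 0.917).

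**Figure D5:**
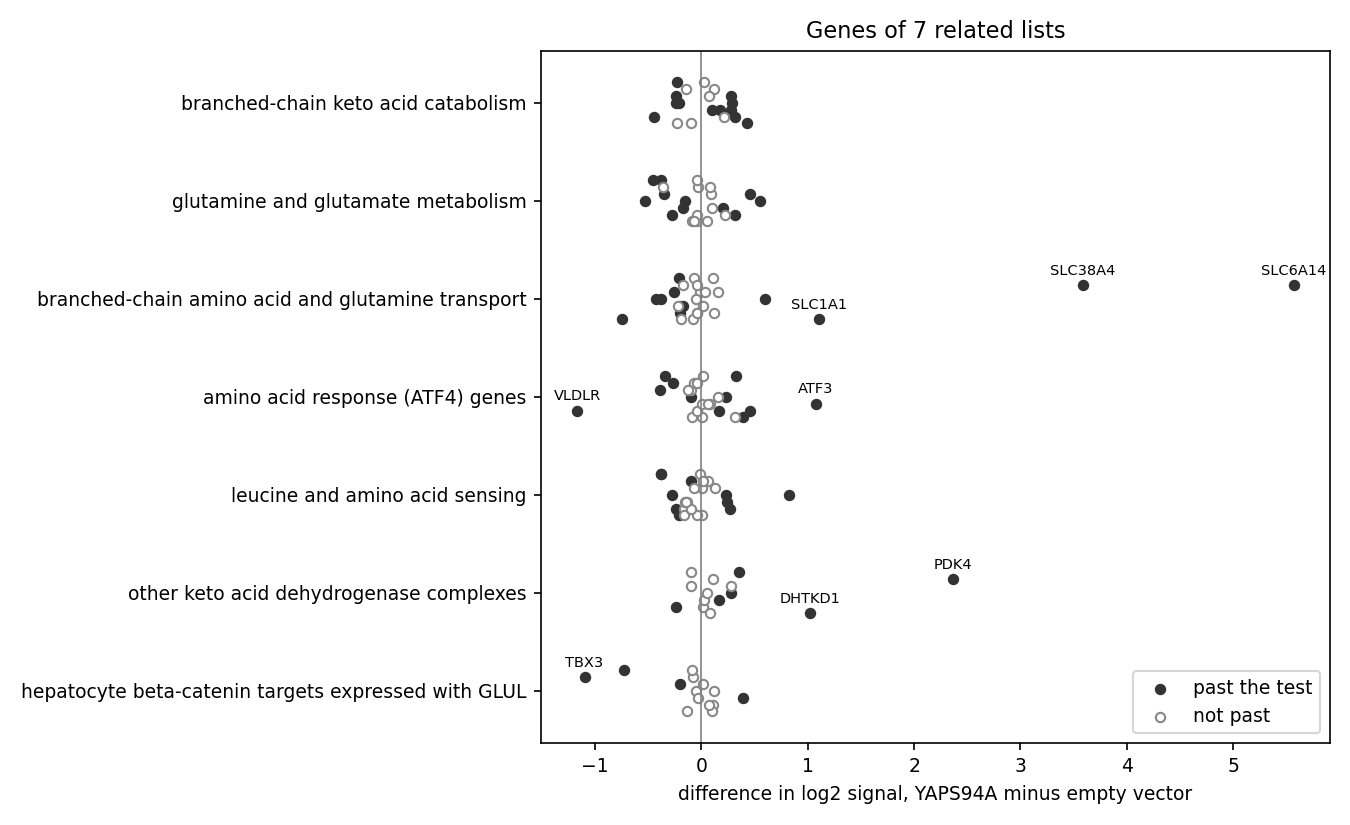
Difference in log2 signal, YAPS94A minus empty vector, for each measured gene of 7 lists of related genes, filled where past the threshold of 0.05 on the adjusted p and open otherwise. Most genes lie within 1 log2 unit of 0, and SLC6A14 (5.57), SLC38A4 (3.59) and PDK4 (2.37) lie farthest out.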

How the data were processed

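RNA of 10 samples was amplified and biotin-labelled with NuGEN Ovation reagents for Affymetrix arrays, per the labels' protocols. The values are the log2 signals deposited by the authors, 1 per probe set. Summarisation and normalization are not given in the sources used here. Symbols came from the platform annotation, which gave 41097 of 54675 a single symbol, 1801 several and 11777 none, with symbols updated through RefSeq (GRCh38.p14, 41043 matched). The 62 control probe sets were left out.

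limma (version 3.58.1, R 4.3.3) was fitted to all 10 arrays without covariates, two-sided, with Benjamini-Hochberg adjustment, once over 54613 probe sets (members) and once over the brightest probe set of each of 19775 genes (lists). It was tried on simulated data with independent noise for each gene and array. That trial held no effect of array number or RNA integrity, so it cannot show how the fit handles them here. Differences are YAPS94A minus empty vector with SE, and the precision is limited by the 5 arrays per vector. Arrays were not identical in any pair. Deviations of same-numbered arrays correlated at 0.10 to 0.59 over genes in all 5 pairs (0.063 to 0.54 over probe sets). Arrays of different numbers were not compared in this way. The main fits did not pair the arrays, and the array number entered only as a block in an alternative fit. Any pairing by number comes from the data and not from a stated batch.

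The members, lists and motifs were chosen with earlier results of these data known. Named genes are the members, the 4 largest changes past the test in each list, a fixed set of others, list markers and the 5 nearest profiles. PPAT was chosen after its values were seen. Alternatives covered 2 renormalizations, an intensity trend, array weights, a filter, the block, an RNA integrity covariate, omitted arrays, neighbouring genes and 2 other gene representations.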

Additional observations from a re-analysis of the deposited data

Results flagged for a closer look

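In 4 of 126 groups of 5 arrays examined, 1 array stood apart from the other 4 (chance alone would give about 1 in 20). BCAT1 225285_at read 5.53 on YAPS94A array 3, against 5.81 to 5.89 on the other YAPS94A arrays, which is small beside the difference between the vectors. DBT 205371_s_at read 5.84 on YAPS94A array 2, against 6.42 to 6.62 on the others. The pyruvate dehydrogenase phosphatase gene PDP1 read 12.32 on empty vector array 1, against 12.48 to 12.55 on the others. GPT, cytosolic alanine aminotransferase, read 7.77 on YAPS94A array 2, against 7.42 to 7.47 on the others, and without that array it passed as lower (-0.14, adjusted p = 0.0205).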

How the results depend on the processing

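Leaving out each array in turn, BCAT1 226517_at ranged from -5.73 to -5.57 and GLUL 215001_s_at from -5.12 to -5.04. Relative to neighbouring genes BCAT1 was at -5.30, in the mean of probe sets BCAT1 was at -4.75 and GLUL at -2.17, and without _x_at and _s_at probe sets GLUL was at -0.021. Over the fits of all 22 member probe sets, 8 to 13 were past the threshold, and 7 of these were of BCAT1 and GLUL in each fit. With features above the median level only, 18 member probe sets were left and 8 passed, 5 of them of BCAT1 and GLUL. The 3 others in the main analysis became 6 with the replicate block, in which BCKDHB 213321_at (0.47), DBT 231919_at (-0.16) and DBT 244687_at (-0.14) also passed, and 1 without YAPS94A array 4 or empty vector array 5. The call of BCAT2 203576_at was lost without YAPS94A array 2, 3, 4 or 5 or empty vector array 1, 3 or 5 and after array median centring, and that of BCKDHA without YAPS94A array 1 or 4 or empty vector array 4 or 5. Among lists, only 2 beta-catenin targets passed among features above the median level (4 as reported, and 4 or 5 in all other alternatives), and without _x_at and _s_at probe sets 6 ATF4 genes (11 as reported, 9 to 14 in the other alternatives) and 6 sensing genes (10 as reported, 7 to 13 in the others) did. Without those probe sets ALDH6A1 (-0.024) and ASNS (-0.056) changed sign on dim probe sets, GOT2 did so relative to neighbours (0.0019) and DLD in the mean of probe sets (-0.13). In the mean of probe sets ASNS was at 0.20, ATF3 at 0.64, ATF5 at -0.23, CYP2E1 at 0.18, MTOR at -0.16, PDK4 at 0.78 and SLC38A4 at 2.14. Relative to neighbours DHTKD1 was at 0.43, SLC38A7 at -0.36, ZNRF3 at -0.43 and YAP1 at 0.26. Called genes ranged from 5509 to 8713 over all alternatives. The replicate block changed the call of no named list gene other than SLC3A2. The causes were not tested beyond what each alternative leaves out. Without detection calls, signal near background limits the folds of BCAT1, GLUL and SLC6A14.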
